A study of Drosophila melanogaster with 2 samples.

Results

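Binding of a dsf-eGFP fusion protein was examined at 10 genes of glycolysis and glycerol phosphate metabolism in whole *Drosophila melanogaster* larvae. The genes were Hex-A, Pfk, Ald1, Tpi, Gapdh1, Gapdh2, Eno, Pyk, Ldh and Gpdh1. They were taken by name, as 10 of the 13945 protein-coding genes annotated on the nuclear chromosome arms. For each gene, all summits inside it or within 2 kb of it were collected, a summit being the base of strongest signal in a region. Chromatin immunoprecipitation followed by sequencing (ChIP-seq) had been run on 2 biological replicates of a single group, numbered 3 and 4 in the labels. Both came from the transgenic strain dsf-GFP, whose dsf protein carries GFP at its C-terminal end, and an anti-GFP antibody was used for the pull-down. The animals were wandering larvae of the third instar, pooled over both sexes, and the age is given as unknown. The chromatin came from whole animals and was sonicated. Cell types were therefore mixed, and binding in fewer cells cannot be told apart from weaker binding in each cell. No control sample was analysed here and there was no second condition, so the values below are positions and ranks, with no test between groups.

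Glycolysis splits glucose into pyruvate, with a small gain of ATP and of reduced NAD. Growing *Drosophila* larvae are known for aerobic glycolysis, in which much of the sugar is not burnt in mitochondria but feeds growth. Reduced NAD is then oxidised again by lactate dehydrogenase, the product of Ldh, and by cytosolic glycerol-3-phosphate dehydrogenase, the product of Gpdh1. In flies the nuclear receptor ERR is known as an activator of many glycolytic genes and of Ldh. The protein pulled down here, Dissatisfaction, is a relative of the receptor Tailless with no known ligand, and is best known from courtship and from neurons that differ between the sexes.

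Of the 7 regions found at these genes, 4 intergenic ones are shown as 101 bp around the summit, on the strand of the gene, from the RefSeq genome sequence of release 6 (dm6). The Gapdh2 and Ldh windows are shown as the strongest and the most AT-rich, the Gpdh1 window as the one beyond a gene's 3′ end, and the Pyk window as the least AT-rich. Capitals mark AGGTCA, the core word bound by many nuclear receptors, in Gapdh2. In Ldh and Gpdh1 they mark TATAAA, the core of the TATA box, or its reverse complement. The Ldh words began 17 bp and 49 bp upstream of a summit that was itself 183 bp upstream of the nearest Ldh TSS. A mark shows only that these letters are there. None of the words searched was found in the Pyk window.
Gapdh2, chrX:15867954-15868054, plus strand: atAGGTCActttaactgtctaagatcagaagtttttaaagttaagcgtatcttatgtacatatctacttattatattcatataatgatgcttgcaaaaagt
Ldh, chr3L:6262827-6262927, minus strand: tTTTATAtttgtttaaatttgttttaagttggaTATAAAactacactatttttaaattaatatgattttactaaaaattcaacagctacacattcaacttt
Gpdh1 (beyond the 3′ end), chr2L:5949265-5949365, plus strand: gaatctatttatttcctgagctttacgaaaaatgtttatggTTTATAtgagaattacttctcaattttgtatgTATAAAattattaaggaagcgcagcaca
Pyk, chr3R:22367424-22367524, plus strand: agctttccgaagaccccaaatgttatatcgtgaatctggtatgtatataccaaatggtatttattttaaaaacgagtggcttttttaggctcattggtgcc

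The authors deposited a ranked list for each replicate and a pooled list, each of 29999 regions with background included. They also deposited a shorter list thresholded by the irreproducible discovery rate (IDR), a measure of how similarly replicates rank regions. The IDR-thresholded list held 1731 regions, 1708 of them nuclear, and these were the pooled list cut at rank 1731. A place in it thus followed pooled rank and does not show that the replicates ranked a region similarly. The overlap of the list with the strongest regions of each replicate is also partly built in. Regions are described by the authors' signal value, which has no stated unit and is compared here only between regions of the same list, and by rank, with rank 1 the strongest. The nuclear IDR-thresholded regions had signal values from 73.5 at the weakest to 778.9, with a median of 104.0. The files hold no read counts, so depth is unknown and no value has a counting error.

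The strongest regions were at Gapdh2, Eno, Ldh and Gpdh1. An IDR-thresholded summit lay inside or within 2 kb of 6 of the 10 genes (Gapdh2, Eno, Ldh, Gpdh1, Hex-A and Pyk), beside 18.6% of all protein-coding genes. Among the 6861 genes between the shortest and longest of the 10 in length, the share was 19.5%. The other 4 genes (Ald1, Pfk, Gapdh1 and Tpi) had no such summit. The same 6 genes had a summit within 1 kb of one of their own transcription start sites (TSS), beside 12.2% of protein-coding genes. Each of these 6 genes also owned the TSS nearest to one of its summits, which held for 51.7% of all genes with a summit in reach. Only Gpdh1 had 2 summits, and 3.84% of protein-coding genes had 2 or more. A longer gene has more sequence in reach, and the 10 genes had a median length of 4504 bp against 2166 bp over all protein-coding genes. These genes were chosen with earlier results of the same data known, so the counts describe them and are not a test.

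In the pooled list the strongest region of each gene had a median rank of 738 over the 10 genes, against 13533 over all protein-coding genes, with genes lacking a region placed last. A pooled region of rank 5000 or better lay at 7 of the 10 genes, beside 34.1% of all protein-coding genes. No pooled region at all was found at 2 of the 10, Gapdh1 and Tpi, beside 35.4% of all.

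**Figure D1:**
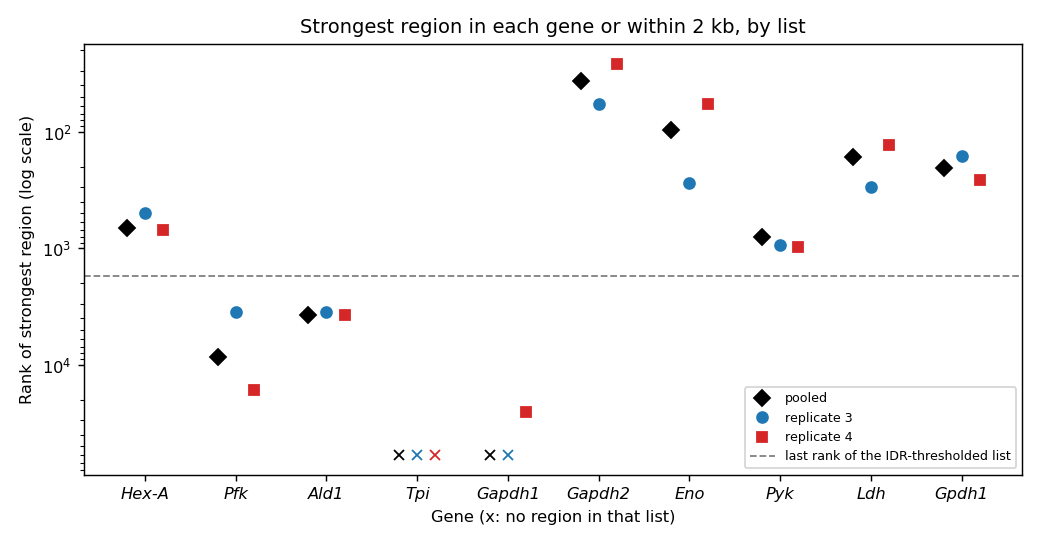
Rank of the strongest region inside each gene or within 2 kb (vertical log axis, strongest at the top) in the pooled list and in the lists of replicates 3 and 4; crosses mark genes with no region in that list. The 6 genes with an IDR-thresholded summit stand above the dashed line at rank 1731 in all 3 lists, and Tpi has no region in any of them.

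Gapdh2 encodes a glyceraldehyde-3-phosphate dehydrogenase, the enzyme that reduces NAD in the middle of the pathway. Its region at chrX:15867802-15868154 (dm6, 353 bp) had the highest signal value of the 10 genes, 448.4, at rank 37 of the IDR-thresholded list, or rank 19 among the nuclear regions. The signal value was 144.1 in replicate 3 and 304.0 in replicate 4, at ranks 58 and 26 of their lists. Both replicates thus placed this region among their strongest. The intergenic summit stood 141 bp upstream of the TSS of transcript RA and 207 bp upstream of that of RC. No TSS of another protein-coding gene lay within 1 kb. A weaker pooled region of rank 2310 and signal value 62.8 lay 464 bp beyond the gene's end, 58 bp upstream of the TSS of the next gene, CG16952.

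Gapdh1 (chr2R:7791901-7793380) encodes the second enzyme of the same step and gave a different picture. No region of the pooled list or of replicate 3 lay in the gene or within 2 kb of it. Replicate 4 had 2 weak regions there, the better one at rank 25544 with a signal value of 10.2. The nearest pooled summits lay 22279 bp upstream of the gene and 3783 bp downstream. Of all protein-coding genes, 27.7% lay at least as far from a pooled summit. The coding sequences of both genes are 996 bp long and identical at 884 positions, or 88.8%, and their longest shared run is 38 bp. Over the 500 bp upstream of each gene the longest shared run was 9 bp. How the authors placed reads that fit both genes is not given in the sources used here, and its part in the difference between the genes was not tested.

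Eno encodes enolase, which makes phosphoenolpyruvate near the end of the pathway. Its region at chr2L:1727861-1728029 was the narrowest of the 7, at 169 bp, and had a signal value of 267.4 at rank 97. Replicate 3 gave 72.3 at rank 274 and replicate 4 gave 197.6 at rank 58. The summit lay in an intron, 195 bp upstream of the TSS shared by transcripts RA and RF. The gene's other start sites lay 551 bp and 1724 bp upstream of the summit. The replicate 3 summit was displaced by 86 bp from the pooled one. By position the region is at an internal start of Eno, and the outermost TSS, that of RB and RE, had only a region just below the threshold, with a signal value of 70.4 at rank 1876. It ranked 7054 in replicate 3 and 1453 in replicate 4, where it is among the strongest 1731. That weaker summit was 27 bp upstream of this TSS, in an exon of the neighbouring gene Rrp40, which encodes a subunit of the RNA exosome. A TSS of Rrp40 also lay 820 bp from the strong summit.

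Pyk (PyK in the annotation) encodes pyruvate kinase, the last enzyme of the pathway. Its region at chr3R:22367272-22367675 had a signal value of 108.5 at rank 809, close to the median of the list. The signal value was 41.0 at rank 946 in replicate 3 and 61.5 at rank 977 in replicate 4. The summit was 62 bp upstream of the TSS of transcript RB and 101 bp from the TSS of Polr3F, a subunit of RNA polymerase III, so that position does not assign it to one of the pair. A further region stood 450 bp upstream of the second TSS, that of RA. It fell just below the threshold, with a signal value of 70.9 at rank 1850, and ranked 3605 in replicate 3 and 1540 in replicate 4.

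**Figure D2:**
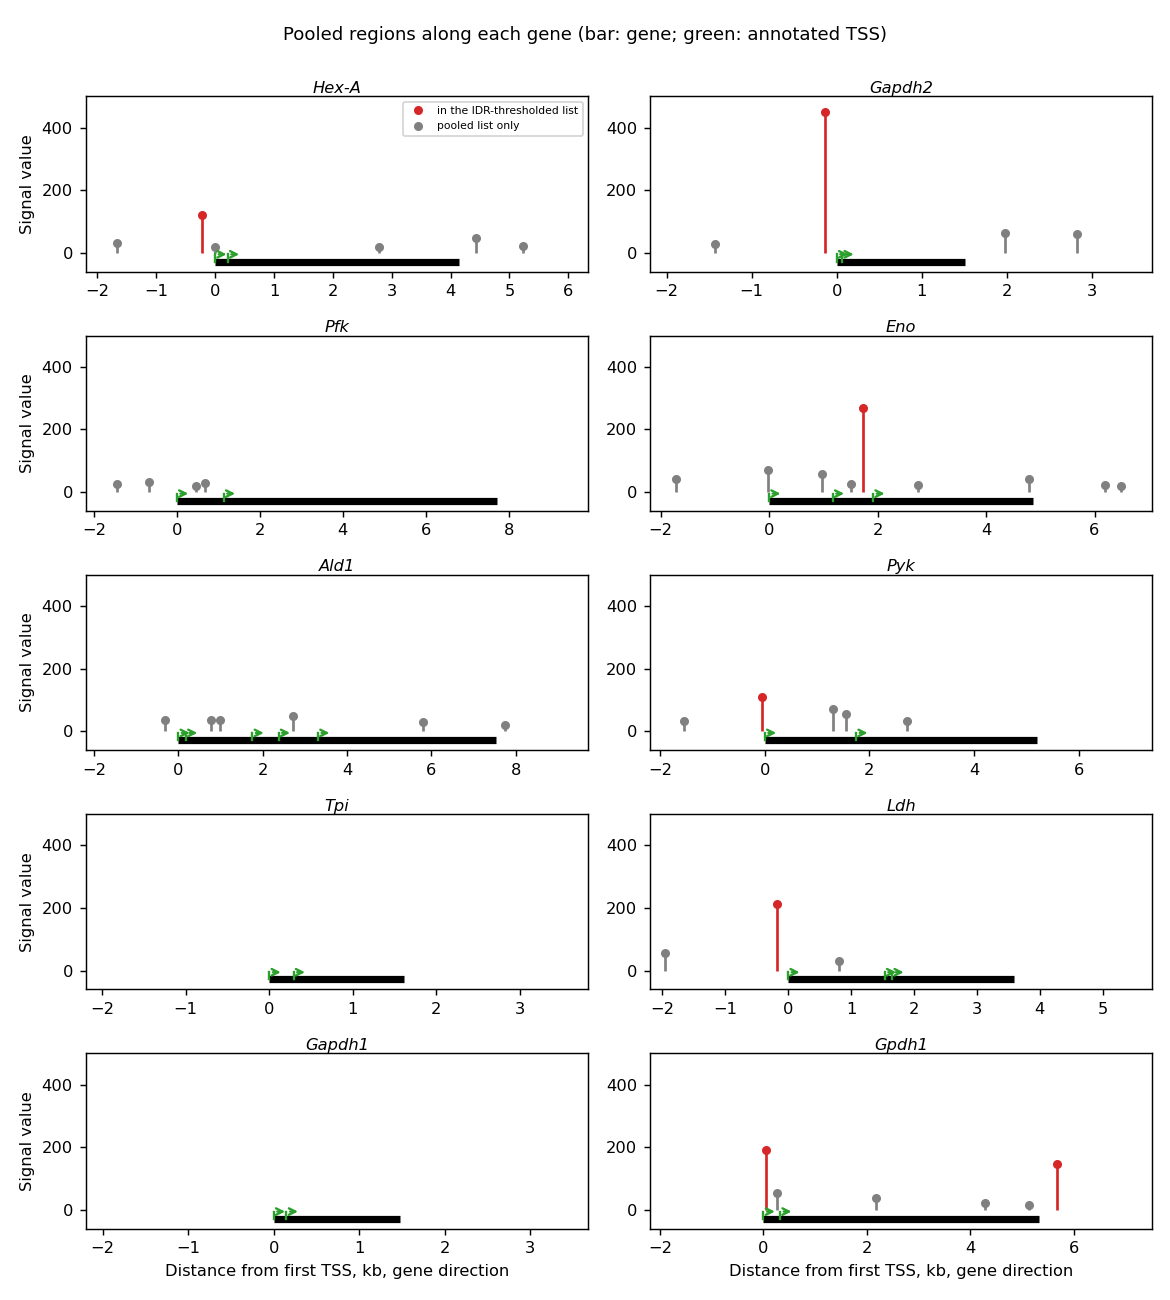
Regions of the pooled list along each of the 10 genes, with distance from the first annotated TSS in kb (horizontal, in the direction of transcription) and the authors' signal value (vertical); black bars are genes and green arrows their start sites. The tallest region, at 448.4, stands just upstream of Gapdh2, the strong Eno region stands inside the gene, and Tpi and Gapdh1 are empty.

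Ldh, the lactate dehydrogenase gene, had 1 IDR-thresholded region, at chr3L:6262675-6263078, with a signal value of 211.6 at rank 164. The signal value was 70.0 at rank 296 in replicate 3 and 134.6 at rank 131 in replicate 4. The summit was intergenic, 183 bp upstream of the TSS of transcripts RA and RB, with no other protein-coding TSS within 1 kb. The start sites of RD and RC lay 1717 bp and 1837 bp downstream of it. Neither of these had a region within 500 bp in the pooled list or in either replicate. Somewhat farther out, a pooled summit of rank 9912 lay in an intron 723 bp upstream of the RD TSS. Replicate 3 also had a summit of rank 4682, 538 bp upstream of that TSS. A weak pooled region of rank 2836 stood 1962 bp upstream of the first TSS.

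Gpdh1 had a region at each end. Its cytosolic enzyme turns dihydroxyacetone phosphate into glycerol-3-phosphate, which feeds lipid synthesis and the shuttle of reducing power into mitochondria. The region at the 5′ end, chr2L:5943499-5943902, had a signal value of 192.8 at rank 204. Replicate 3 gave 90.2 at rank 161 and replicate 4 gave 106.1 at rank 262. The summit was in the first exon of transcripts RE, RF and RG, 58 bp downstream of their TSS, and 264 bp upstream of the TSS of RA, RB and RC. The replicate 3 summit lay at -61 bp from the pooled one, on the upstream side. A TSS of Sfp26Ad, a gene named for a seminal fluid protein, was 397 bp away. At the second TSS of Gpdh1 itself a weaker summit lay 52 bp upstream, at pooled rank 3069, and here the replicates stood apart, with rank 9223 in replicate 3 and rank 691 in replicate 4.

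The second Gpdh1 region, chr2L:5949113-5949516, lay 347 bp beyond the 3′ end of the gene. It had a signal value of 148.1 at rank 417, with 70.2 at rank 295 in replicate 3 and 76.7 at rank 608 in replicate 4. The nearest TSS was that of CG9044, 135 bp from the summit, so by position this region is at the promoter of the next gene.

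Hex-A encodes a hexokinase, which phosphorylates glucose at the entry to the pathway. Its region at chrX:9585251-9585654 had a signal value of 119.8 at rank 666. Replicate 3 gave 56.7 at rank 497 and replicate 4 gave 71.9 at rank 697. The intergenic summit was 222 bp upstream of the TSS of RC and 437 bp upstream of that of RA and RB, with no other protein-coding TSS within 1 kb. Near the 3′ end, 285 bp beyond the gene, a pooled region had rank 4066.

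Among the early steps between hexokinase and Gapdh, the genes had weak regions or none. Pfk (chr2R:10109740-10117457) encodes phosphofructokinase, the main point of control of the pathway. Its 4 pooled regions reached a signal value of at most 31.5, at rank 8639. That summit lay 674 bp upstream of the first TSS, in an exon of the neighbouring gene 14-3-3zeta. The best Pfk region of replicate 3 was elsewhere, at rank 3533 (21.8), in an intron 1420 bp downstream of a TSS. Replicate 4 had one nearby at rank 16615, and the pooled list had none there. Ald1 (chr3R:26254069-26261591) encodes an aldolase, which splits the sugar bisphosphate. It had 6 pooled regions, the strongest in an intron with a signal value of 48.5 at rank 3722, 351 bp downstream of the TSS of transcripts RI and RK. This region ranked 9433 in replicate 3 and 3762 in replicate 4. The nearest IDR-thresholded summit was 194703 bp from Ald1. Tpi (chr3R:30132981-30134599) encodes triose phosphate isomerase, which interconverts the products of the split. It had no region in the pooled list or in either replicate, and the nearest pooled summits lay 36245 bp upstream and 16935 bp downstream. Of all protein-coding genes, 5.94% lay at least as far from one.

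Start sites within a gene differed. The 10 genes have 25 annotated TSS positions, and 9 of them (36%) had an IDR-thresholded summit within 500 bp, beside 9.72% of all 19607 TSS positions of protein-coding genes. Neighbouring start sites share summits, so these positions are not independent. In Gapdh2, Gpdh1 and Hex-A both start sites were within 500 bp of the same summit. In Ldh, Pyk and Eno a single position was. For Pyk and Eno this depended on the list. Among the strongest 1731 regions of replicate 4 alone, a summit also lay 455 bp upstream of the second Pyk TSS. Another lay 29 bp upstream of the first Eno TSS. In replicate 3 alone the Eno summit of rank 274 was also within 500 bp of the middle Eno TSS, 465 bp downstream of it.

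The 7 regions were found in both replicates, each with a summit within 100 bp of one among that replicate's strongest 1731 regions. Of the 1708 nuclear IDR-thresholded regions, 966 (56.6%) met this rule. All 7 had signal values above the median of that list, from 1.04 to 4.31 times it, and 5 were in its strongest 25%. The share among regions of like signal was not counted. The signal values of different lists need not share a scale, so the replicates are compared by rank. Eno had the largest gap of the 7, a factor of 4.72 between its ranks of 58 in replicate 4 and 274 in replicate 3, against a median factor of 1.69 over 1473 matched regions. The factor was 2.26 for Ldh and 2.23 for Gapdh2, both ranked better in replicate 4. It was 2.06 for the 3′ region of Gpdh1, 1.63 for its 5′ region, 1.40 for Hex-A and 1.03 for Pyk, all ranked better in replicate 3. The order of the genes differed, with Gapdh2 first in both lists, Gpdh1 second in replicate 3 and Eno second in replicate 4. In replicate 3, Eno at 72.3, the 3′ region of Gpdh1 at 70.2 and Ldh at 70.0 were nearly level.

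**Figure D3:**
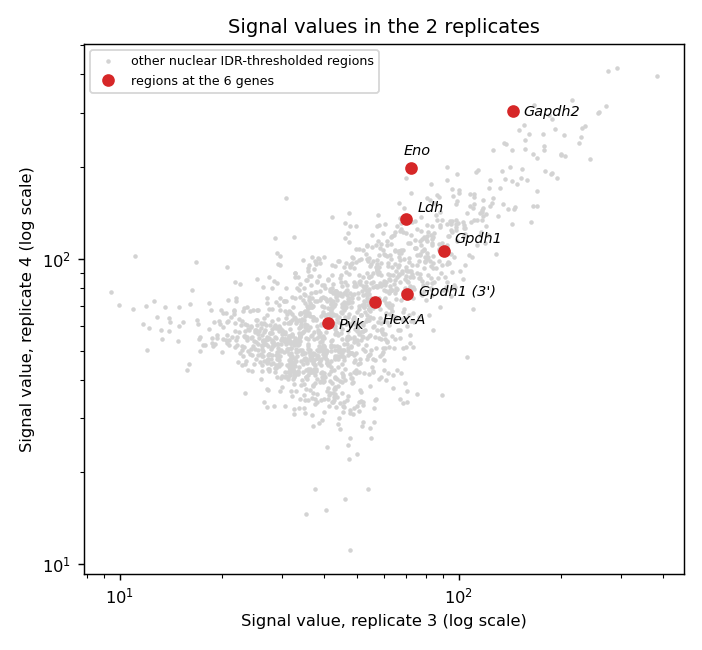
Signal values in replicate 3 (horizontal) and replicate 4 (vertical), both on log axes, for the nuclear IDR-thresholded regions matched in both replicates; each axis has the scale of its own list. Red points are the 7 regions at the 6 genes, with Gapdh2 the highest of them on both axes (144.1 and 304.0) and Eno second in replicate 4 (197.6).

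Below the threshold, the 10 genes held 36 further pooled regions, of 43 in all. Of these 36, 21 had a matching summit in both replicate lists, and 10 were of rank 5000 or better. Each replicate list includes background, and the same shares over all pooled regions below the threshold were not counted. These counts therefore do not show whether the 10 genes differ from others. Several stood at start sites that the strong regions left uncovered. The signal values nearest to the lowest in the IDR-thresholded list, 73.5, were those at the second Pyk TSS (70.9) and the first Eno TSS (70.4).

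Short words in the windows gave few matches. Each word was searched on either strand within 50 bp of the 7 summits. AAGTCA, the core word preferred by tailless-group receptors, was in 0 of the 7 windows and in 5.27% of the 1708 nuclear regions. AGGTCA was in 1, beginning 48 bp before the Gapdh2 summit, and in 1.76% of all. AAGGTCA, the core of the ERR site, which contains AGGTCA, was in 0 and in 0.585% of all. CACGTG, the E-box, was in 0 and in 1.11%, and the shorter ACGTG, which it contains and which is the core bound by hypoxia-inducible factors, was in 0 and in 6.56%. TATAAA was in 2 of the 7, those of Ldh and the 3′ region of Gpdh1, and in 23% of all. TATCGA, the core of the DREF site, was in 0 and in 10.1%, GAGAGA was in 0 and in 3.34%, and the initiator word TCAGT was in 0 and in 16.9%. Some of these counts depended on the window: within 100 bp of the summit TCAGT was in 3 of the 7 and ACGTG in 1. A match says only that these letters are there, and the absence of one says nothing about the factor.

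The windows were AT-rich to unequal degrees. The Ldh window was 82.2% A or T, and 17 of the 1708 nuclear regions were higher. Eno and Hex-A had 74.3%, Gapdh2 73.3% and the 3′ region of Gpdh1 72.3%, all above the median of 68.3%. The 5′ region of Gpdh1, at 66.3%, and Pyk, at 63.4%, were below it.

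Further genes of sugar metabolism were read from a list of 60 named by pathway. An IDR-thresholded summit lay inside or within 2 kb of 16 of the 60 (26.7%), beside 18.6% of all protein-coding genes. For 10 of these 16 the gene's own TSS was the nearest to a summit, beside 51.7% of all protein-coding genes with a summit in reach. At the other 6 genes with a summit in reach, the nearest start belonged to a neighbour. Of the 60, 19 had no pooled region, beside 35.4% of all protein-coding genes. Among the 10 glycolysis and glycerol phosphate genes, each of the 6 with a summit had one nearest to its own TSS.

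Of 21 other genes of glycolysis and gluconeogenesis, 3 had a summit in reach (14.3%), below the 18.6% of all protein-coding genes. For 1 of the 21 a summit lay within 1 kb of its own TSS, beside 12.2% of protein-coding genes. Hex-C, a second hexokinase, had the highest value, 465.4 at rank 34, but the summit was 146 bp upstream of the TSS of mRpL41, a mitochondrial ribosomal protein gene. At the pyruvate kinase relative CG12229 (284.5, rank 82) the nearest TSS was that of CG32176. Pgk, the phosphoglycerate kinase gene that follows Gapdh in the pathway, had 4 summits with signal values of 125.4, 119.3, 101.3 and 93.0. The one at 119.3 was 257 bp upstream of a Pgk TSS. That at 101.3 was 137 bp upstream of a Pgk TSS and 28 bp upstream of a Bacc TSS, so position does not assign it to one of them. Those at 125.4 and 93.0 were nearer to a Bacc TSS. The summit at 125.4 had no match in replicate 3 within 100 bp.

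Of 7 glycerol phosphate genes besides Gpdh1, 2 (28.6%) had a summit, beside 18.6% of all protein-coding genes. These were the glycerol kinase genes Gk1 and Gk2. That of Gk1 (106.0, rank 844) was 15 bp upstream of its TSS, and that of Gk2 (257.1, rank 106) was nearest to CG13921. Neither had a match in replicate 3 within 100 bp. Gpo1, the mitochondrial partner of Gpdh1 in the shuttle, had no pooled region.

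Of 6 pyruvate genes, 2 (33.3%) had a summit, beside 18.6% of all protein-coding genes. These were muc, a subunit of pyruvate dehydrogenase (160.5, rank 349), and Pdp, its phosphatase (88.8, rank 1195). The muc summit was 1501 bp upstream of the nearest muc TSS, in an exon of the non-coding RNA gene CR43857. That of Pdp was 8 bp downstream of its TSS. Of 12 genes of glycogen, trehalose and sugar entry, 4 (33.3%) had a summit, beside the same 18.6%. These were Glyp, glycogen phosphorylase (164.5, rank 322, 198 bp upstream of its TSS), the sugar transporter gene sut1 (152.1, rank 390, nearest to slv), Pgm2a, a phosphoglucomutase gene (85.4, rank 1294), and Treh, trehalase, with 2 summits (83.1 and 76.5). The weaker Treh summit was nearest to CG10527, 233 bp upstream of its TSS. Of 5 pentose phosphate genes, 1 (20%) had a summit, close to the 18.6% of all protein-coding genes. This was Zw, glucose-6-phosphate dehydrogenase, with one of the strongest regions of the list (382.2, rank 49), in an intron 1112 bp upstream of its nearest TSS.

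Of 9 regulators of sugar metabolism, 4 (44.4%) had a summit in reach, beside 18.6% of all protein-coding genes. For 2 of the 9 the gene's own TSS was the nearest to a summit. The share was not matched for gene length. The regulators crp and sima had 31 and 27 pooled regions in reach, against a median of 2.0 over all protein-coding genes. ERR had one 219 bp upstream of its TSS (183.3, rank 238), but the TSS of Atg18a was nearer, at 33 bp. It ranked 104 in replicate 3 and 777 in replicate 4. Bigmax, the partner of the sugar sensor Mondo (166.4, rank 313), had no match in replicate 3. The gene crp had 3 summits (140.0, 96.3 and 77.8), the strongest 80 bp upstream of its TSS. At sima, the hypoxia-inducible factor gene (132.0, rank 530), the nearest TSS was that of CG7950. Of the 44 genes without an IDR-thresholded summit, those with the best pooled ranks were PCB (1815), UGP (1847), Myc (2001), Hr38 (2287) and CG7362 (2346). The nearest TSS was that of CG30010 at the PCB region and that of Cen at the Hr38 region.

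**Figure D4:**
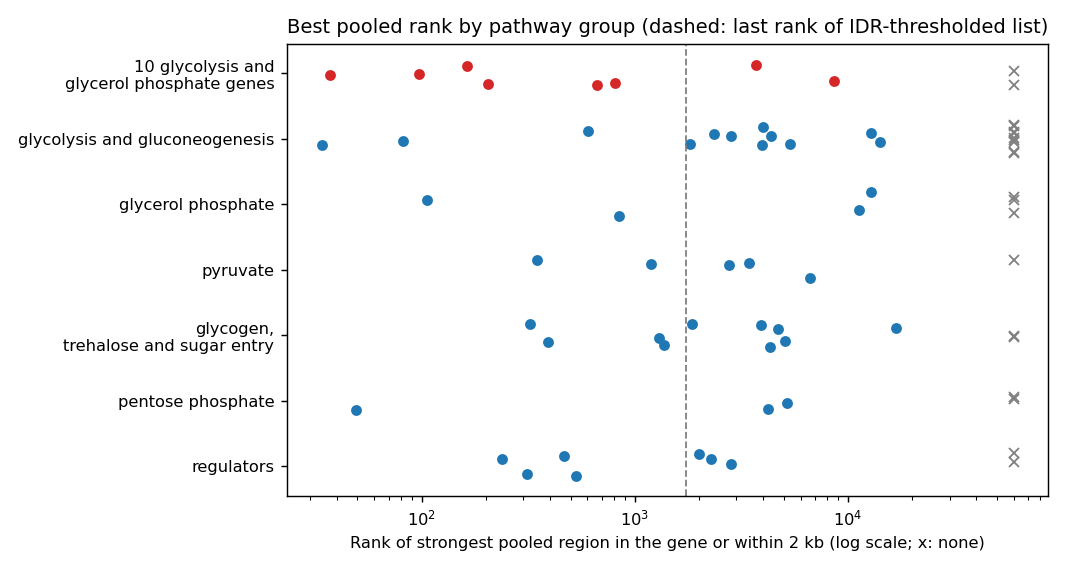
Rank of the strongest pooled region inside each gene or within 2 kb (horizontal log axis, strongest at the left) for the 10 glycolysis and glycerol phosphate genes in red and for 6 groups of other sugar metabolism genes in blue; crosses are genes with no pooled region. Points left of the dashed line at rank 1731 have an IDR-thresholded summit, 6 of the 10 and 16 of the 60.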

How the data were processed

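The series holds ChIP-seq of dsf-eGFP in 2 biological replicates of whole larvae, with 1 group and hence no comparison between groups. Per the labels and the file descriptions deposited with them, each replicate has a list of peaks and background made as input to IDR, and the series has a pooled and an IDR-thresholded list. In each list the authors give a signal value per region, never negative and with no stated unit, and the −log10 of a q-value. At all 7 regions described, the pooled −log10 q was 3.24, the highest in that list, as it was for 865 regions in all, so the authors' signal value was used for ranks. Tool names and versions for alignment, peak calling and the use of a control were not given among the sources at hand.

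The 4 lists on dm6 were used, and the 4 on dm3 were not. Summits were placed against Ensembl release 115 on genome release 6 with Python 3.11.15, pandas 2.3.3, NumPy 2.4.6 and Biopython 1.88, and coordinates count from 1. The scripts were tested on simulated regions with known positions. Summits within 100 bp were called matched. Depth is unknown, since the files hold no read counts.

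The 10 genes, the list of other sugar metabolism genes and the words searched were chosen with earlier results of these data known. Of 63 symbols listed, 2 were not matched and 1 (Gyk) named a gene already listed, which left 60. Named are the 10 genes, every listed gene with an IDR-thresholded summit in reach, the 5 others with the best pooled rank, and the gene with the TSS nearest to a summit. Gpo1 and the other neighbouring genes (Rrp40, Polr3F, Sfp26Ad, CG16952, 14-3-3zeta) are named for their role or position, after their values were seen. The alternatives tried were a stricter list, each replicate alone, other windows and distances, and the gene body with 2 kb upstream only. No test was made and no listed gene was dropped.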

Additional observations from a re-analysis of the deposited data

How the results depend on the processing

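The 6 genes with an IDR-thresholded summit were the same 6 with windows of 1 kb or 5 kb, with the gene body and 2 kb upstream only, with any overlap of the region, and when the strongest 1731 regions of a single replicate were used in place of the list. Leaving out replicates, the count of genes was 6 in each case, that of summits at them 7 to 10, that of genes with a summit within 1 kb of a TSS 6 in each case, and that of the other sugar metabolism genes 15 to 16. The median of the best ranks, 738 in the pooled list, was 722 in replicate 3 and 837 in replicate 4. Among the strongest 25% of the IDR-thresholded list, 433 regions, 4 of the 10 genes remained (Gapdh2, Eno, Ldh and Gpdh1), beside 5.65% of protein-coding genes, and 9 of the 60 other genes, against 16. Regions with any of the words searched numbered 3 within 50 bp of the summit and 5 within 100 bp. With a stricter distance of 50 bp, 5 of the 7 regions were matched in both replicates. Of 53 alternative values, 48 stayed within 1.5 times the main value. That tally is loose, since a fall from 6 genes to 4 counts as within it. It also includes word counts that were 0 and stayed 0, and wider windows, which can only keep or raise a count.

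Limits: 2 replicates of 1 group give only a poor estimate of error, no control sample was analysed, and depth is unknown. The thresholded list is cut from the pooled one, so it is not independent of either replicate. A summit in reach of a gene is a position and does not show that the gene is regulated. No paired analysis was possible because there is 1 group and no result comes from a test.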

Other observations

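Windows of 5 kb brought in 3 further strong summits, each at the promoter of a neighbour. Beyond the end of Ldh, 2 summits (150.9 at rank 399 and 124.8 at rank 612) stood 158 bp and 365 bp upstream of the TSS of Best2, a bestrophin gene. Upstream of Pyk, a summit of 232.2 at rank 134, higher than that at Pyk itself (108.5), stood 120 bp upstream of the TSS of CG7071. These genes were singled out after their values were seen.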
